A study of Homo sapiens with 9 samples.

Results

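Proteoglycan core protein genes were followed across A431 cells with and without mutant p53. The list held the testicans SPOCK1 and SPOCK2, the syndecans SDC1, SDC2, SDC3 and SDC4, and the glypicans GPC1, GPC3, GPC4 and GPC6. These 10 genes were taken by symbol from the 58051 genes of the count table, and each symbol matched 1 row. A431 is an epidermoid carcinoma cell line that carries endogenous mutant p53. Parental cells (mutp53), Ctrl cells made with an empty CRISPR vector (mutp53) and p53 KO cells made with a CRISPR construct against p53 gave 3 poly(A) RNA-Seq libraries per group. All 3 groups were cultured alike in DMEM with 10% serum, and cells were harvested 48 h after they had settled. By the labels the cells had been raised from single colonies, so a group may stand for 1 clone. The sources used here do not state how many clones were sequenced or whether the 3 libraries came from separate cultures, and p-values then measure only the spread between these libraries, which may be technical. A difference between clones and an effect of p53 loss cannot be told apart here. Agreement against both controls does not separate them, because the same p53 KO libraries enter both comparisons.

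Proteoglycans are core proteins that carry long sulfated sugar chains, mostly heparan sulfate or chondroitin sulfate. Syndecans cross the plasma membrane, glypicans are held on its outer face by a lipid anchor, and testicans are secreted into the matrix. Through their chains they hold growth factors such as FGFs and WNTs near their receptors, and in squamous epithelium they take part in adhesion and in the response to the matrix.

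The library totals lay between 19783778 and 29840452 counts. Of 9 keratinocyte and squamous markers, 8 had more than 3 counts in every parental and Ctrl library and 9 in every p53 KO library. The exception was KRT14, with at most 3 counts in any control library and 7 to 13 in p53 KO cells. Of 6 fibroblast markers only COL1A1 passed 3 counts throughout, and DCN, LUM and THY1 were at 0 in all 9 libraries. The 3 leukocyte markers summed to at most 0.342 CPM, where CPM is the count per 1000000 counts of the library after TMM normalisation, and the 3 endothelial markers to at most 1.16 CPM. The keratinocyte list summed to 10490 to 13010 CPM in the Ctrl libraries, below the 15000 to 15760 CPM of p53 KO and the 16110 to 19340 CPM of parental libraries, and EGFR, the receptor amplified in A431 cells, made up 82.6% to 89.6% of the sum. The 8 other markers together overlapped between the groups, at 1753 to 2015 CPM in parental, 1829 to 2010 CPM in Ctrl and 1959 to 2031 CPM in p53 KO libraries. Single markers did differ. KRT6A had 68.3 to 77.8 CPM in p53 KO and 9.80 to 15.3 CPM in control libraries. EPCAM was also higher in p53 KO than in every control library (477 to 500 against 396 to 447 CPM), and CDH1 was lower (265 to 298 against 313 to 383 CPM). The part of the EGFR shift in the results was not tested. In bulk RNA a smaller number of cells of a type and less RNA per cell cannot be told apart.

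Of the 10 core protein genes, 6 were detected and tested (SPOCK1, SPOCK2, SDC1, SDC3, SDC4 and GPC1). SDC2, GPC3, GPC4 and GPC6 were listed at 0 counts in all 9 libraries. A count of 0 allows up to 3 counts, or a level of up to 0.101 to 0.153 CPM depending on the library. SDC2 is the syndecan of mesenchymal cells, GPC3 is best known from fetal liver and liver cancer, and GPC4 and GPC6 are glypicans of neural and developing tissues.

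Promoter letters were compared for 7 members with a usable window in the RefSeq promoter table (GRCh38.p14). SPOCK1, SDC2 and GPC3 were left out of this comparison. It therefore does not cover SDC2 and GPC3, which were at 0 counts. GPC1, the glypican of these cells, and GPC4, a glypican at 0 counts, are shown for the contrast in their RNA. Each run is the 250 bases before the start site, 5′ to 3′, with CG dinucleotides in capitals.
GPC1 (chr2:240435413-240435662, plus strand): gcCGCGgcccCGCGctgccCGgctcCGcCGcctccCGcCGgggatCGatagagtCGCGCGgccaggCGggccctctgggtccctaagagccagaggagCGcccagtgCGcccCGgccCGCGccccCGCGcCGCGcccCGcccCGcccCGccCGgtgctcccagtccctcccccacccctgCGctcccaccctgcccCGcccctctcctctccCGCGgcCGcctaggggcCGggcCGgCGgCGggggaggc
GPC4 (chrX:133415490-133415739, minus strand): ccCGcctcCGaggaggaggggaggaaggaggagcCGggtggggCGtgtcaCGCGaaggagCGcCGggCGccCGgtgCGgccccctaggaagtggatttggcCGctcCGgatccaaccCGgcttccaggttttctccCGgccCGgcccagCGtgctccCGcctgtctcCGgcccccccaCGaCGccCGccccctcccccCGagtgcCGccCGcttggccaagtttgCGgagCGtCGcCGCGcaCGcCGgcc
The GPC1 window held 36 CG dinucleotides and the GPC4 window 32, against a median of 11 over 35114 windows of the table. Both windows were CG-rich against this median, although GPC1 RNA was abundant and GPC4 RNA was at 0 counts. GPC6, also at 0 counts, had 6. Among the expressed syndecans the windows held 37 for SDC3, 26 for SDC4, and 23 and 21 for the pair of start sites of SDC1. The letters GGGCGG, searched on both strands and present in 42.6% of all windows, occurred 3 times for GPC1, 2 times for GPC4 and 8 times for SDC4, and did not occur for GPC6 or SPOCK2. TATAAA, searched on both strands and present in 10.7% of windows, occurred only in the GPC6 window among those of the 7 members.

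Levels of different genes were compared as CPM per kb of exon, where exon length is the union of all annotated exons. SDC4, a syndecan of focal adhesions, and SDC1, the main syndecan of epithelia, were the most abundant. SDC4 had 106 ± 7.01 CPM per kb (mean ± SD, n = 3) in parental cells, 109 ± 1.72 in Ctrl cells and 97.1 ± 2.03 in p53 KO cells. SDC1 had 91.2 ± 2.94, 112 ± 11.1 and 87.0 ± 7.14 CPM per kb in the same order. SDC4 lay above SDC1 in every parental and every p53 KO library, although in p53 KO cells the lowest SDC4 value was just below the highest SDC1 value. In Ctrl cells their ranges overlapped as well. GPC1, the widely expressed glypican, followed with 58.9 ± 0.910, 87.3 ± 9.12 and 50.7 ± 4.83 CPM per kb. By their mean over all libraries SDC4, SDC1 and GPC1 stood at percentiles 97.6, 97.5 and 95.9 of the 14397 tested genes with a length. The place of GPC1 depended on the length used. With the longest transcript in place of all exons it had 103 CPM per kb in parental cells, beside 100.1 for SDC1 and 106 for SDC4, and 153 in Ctrl cells, above SDC1 at 123 and SDC4 at 109.

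The lower ranks changed between groups. SPOCK1 (testican-1) had 5.22 ± 0.192 CPM per kb in parental cells and SDC3, a syndecan prominent in nervous tissue, 3.75 ± 0.300. In Ctrl cells the order was turned, with SPOCK1 at 1.25 to 2.11 and SDC3 at 2.44 to 2.55 CPM per kb. In p53 KO cells SPOCK1 reached 11.0 ± 0.863 and SDC3 2.32 ± 0.167 CPM per kb. SPOCK2 was near the bottom of the tested genes at 0.122 to 0.131 CPM per kb (percentile 4.42), from 15 to 24 counts per library.

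**Figure D1:**
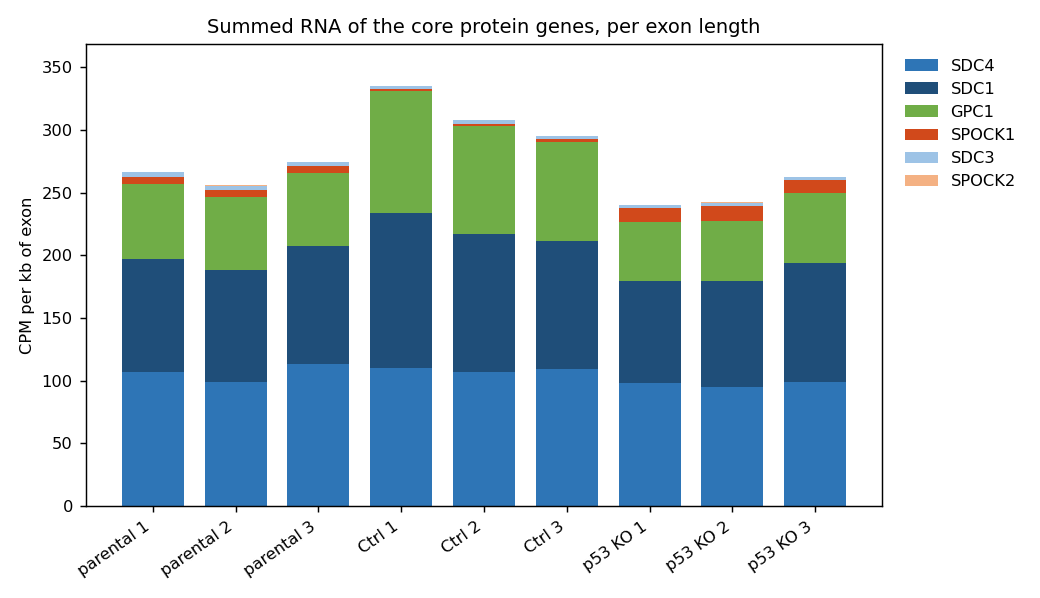
Stacked bars give the CPM per kb of exon of each core protein gene in each of the 9 libraries. SDC4, SDC1 and GPC1 make up most of every bar, the summed level is highest in the Ctrl libraries (295 to 335 CPM per kb), and the SPOCK1 segment is widest in the p53 KO libraries.

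Summed over the 10 genes, the level was 266 ± 9.42 CPM per kb in parental cells, 313 ± 20.5 in Ctrl cells and 248 ± 12.4 in p53 KO cells (SD, n = 3 each). The plot of summed levels shows that the Ctrl bars were the tallest. SPOCK1 took 1.97% ± 0.110 of this sum in parental cells, 0.577% ± 0.177 in Ctrl cells and 4.46% ± 0.533 in p53 KO cells. Within the testicans SPOCK1 made up 97.7% of the parental, 92.9% of the Ctrl and 98.9% of the p53 KO level. GPC1 made up all of the glypican level measured. SDC1 and SDC4 shared almost all of the syndecan level, and SDC3 held between 1.05% and 1.99% of it in any library.

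Loss of mutant p53 was examined by comparing p53 KO with parental cells. SPOCK1 rose and SDC3 fell, and the other 4 tested members did not pass. A gene passed when its adjusted p-value did not exceed 0.05 (edgeR's quasi-likelihood F test, with Benjamini-Hochberg adjusted p-values here and throughout). That was 2 of 6 members, where 18.1% of all 14513 genes tested passed. A log2 fold change past 1.5 in size as well was met by 0 of 6, beside 1.95% of all genes, and one of at least 1 by SPOCK1, beside 3.63% of all genes. The same was done with p53 KO against Ctrl cells, in which 3 of 6 members passed (29.2% of all genes) and 1 passed the fold threshold (3.29% of all genes). Here SPOCK1 rose, and SDC1 and GPC1 fell. SPOCK1 was the only 1 of the 6 to pass in the same direction against both controls, as 11.7% of all genes tested did. The p53 KO libraries are shared by these comparisons, so the comparisons are not independent. The median log2 fold change of the 6 members was -0.10 against parental and -0.13 against Ctrl cells, beside a median of 0.01 over all genes in each.

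**Figure D2:**
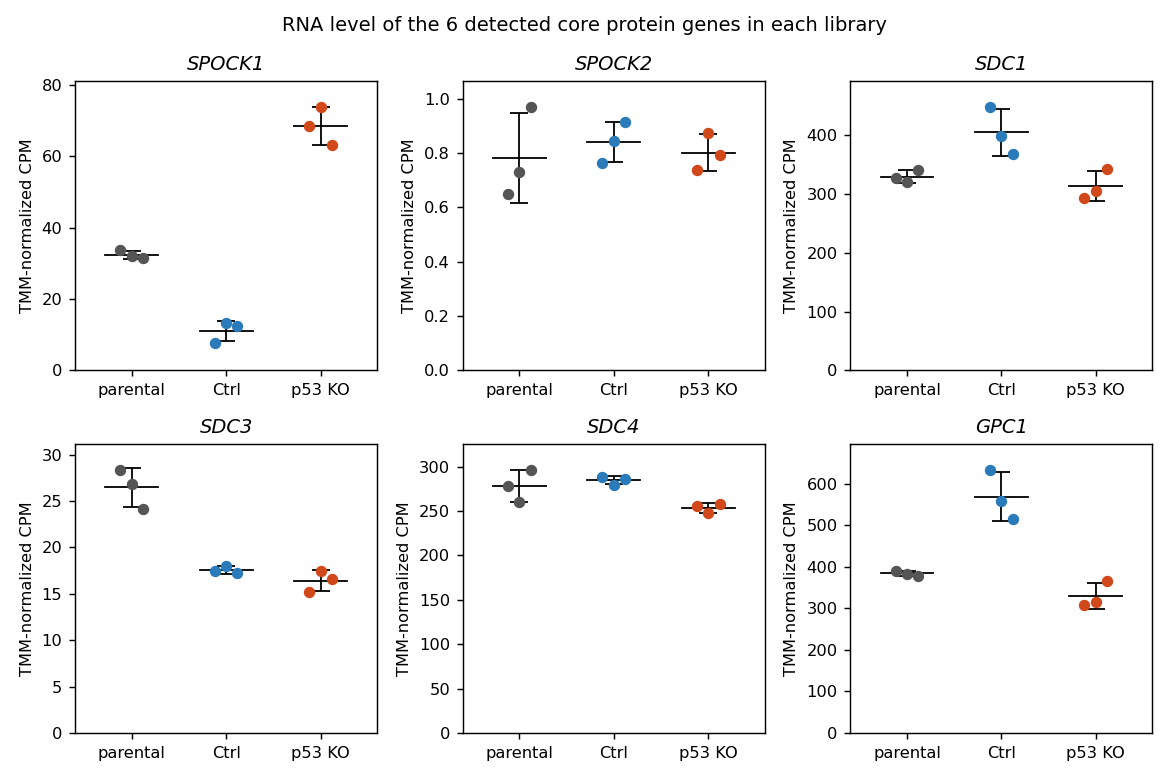
Points are TMM-normalised CPM in single libraries of parental, Ctrl and p53 KO cells for the 6 detected genes, with each axis starting at 0; lines are means and bars are SD (n = 3). For SPOCK1 the 3 groups do not overlap, with p53 KO at 63.0 to 73.7 CPM, parental at 31.3 to 33.7 and Ctrl at 7.75 to 13.1.

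SPOCK1 (ENSG00000152377) lies on the minus strand of chromosome 5 of GRCh38, from 136975298 to 137598379. It encodes a secreted proteoglycan with a SPARC-like calcium-binding module that is known to restrain matrix proteases. Its counts were 880, 834 and 679 in the parental libraries, 152, 373 and 322 in the Ctrl libraries and 2045, 1938 and 1270 in the p53 KO libraries. Normalised, these were 33.7, 32.1 and 31.3 CPM in parental, 7.75, 13.1 and 12.3 CPM in Ctrl, and 68.6, 73.7 and 63.0 CPM in p53 KO cells. Every p53 KO library lay above every parental library, and every parental library above every Ctrl library. SPOCK1 was 2.12-fold higher in p53 KO than in parental cells (log2 fold change 1.08, 95% interval 0.76 to 1.40, adjusted p = 0.000576) and 6.14-fold higher than in Ctrl cells (log2 fold change 2.62, interval 2.27 to 2.97, adjusted p = 1.11e-06). The study picked SPOCK1 from these same libraries as one of the genes for qRT PCR, so its change here is not independent evidence. In independent lysates of Ctrl and p53 KO cells, the paper reports significant qRT PCR changes matching its sequencing only for VGLL1, SH3BGRL and RSAD2. SPOCK1 is not among these. Ctrl replicate 1 held the least SPOCK1 of all libraries, and without it the log2 fold change against Ctrl cells was 2.43.

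SPOCK2 (testican-2, chromosome 10), the other testican measured, had 17, 19 and 21 counts in parental, 15, 24 and 24 in Ctrl and 22, 23 and 16 in p53 KO libraries. The 3 groups overlapped throughout. The p53 KO level differed from the parental level by 0.05 on the log2 scale (interval -0.46 to 0.55, adjusted p = 0.914) and from the Ctrl level by -0.08 (interval -0.58 to 0.42, adjusted p = 0.837). The changes of SPOCK1 in the same comparisons (1.08 and 2.62) lay outside these intervals. Differences inside the intervals are not excluded at this depth.

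SDC3 (ENSG00000162512, chromosome 1 from 30869466 to 30908758) had 28.3, 26.9 and 24.2 CPM in parental libraries, 17.5, 18.0 and 17.2 CPM in Ctrl libraries and 15.2, 17.5 and 16.6 CPM in p53 KO libraries. The parental libraries stood above the 6 others, and the Ctrl and p53 KO ranges overlapped. SDC3 fell by 0.69 on the log2 scale in p53 KO against parental cells (interval -0.89 to -0.49, adjusted p = 0.00045). Against Ctrl cells the log2 fold change was -0.10 (interval -0.30 to 0.10, adjusted p = 0.458). In Ctrl against parental cells SDC3 also fell, with a log2 fold change of -0.59 (adjusted p = 0.0013).

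SDC1 (ENSG00000115884, chromosome 2 from 20200797 to 20225433) had 327, 320 and 341 CPM in parental libraries, 448, 399 and 368 CPM in Ctrl libraries and 294, 305 and 343 CPM in p53 KO libraries. All Ctrl libraries were above all others, and the parental and p53 KO ranges overlapped. Against Ctrl cells SDC1 fell by 0.37 on the log2 scale (interval -0.56 to -0.18, adjusted p = 0.00799). Against parental cells the log2 fold change was -0.07 (interval -0.26 to 0.12, adjusted p = 0.622).

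SDC4 (ENSG00000124145, chromosome 20 from 45325288 to 45348424) did not pass in any of the comparisons. It had 279, 260 and 296 CPM in parental, 288, 280 and 286 CPM in Ctrl and 256, 248 and 258 CPM in p53 KO libraries. The p53 KO libraries were the 3 lowest, with log2 fold changes of -0.13 relative to parental (interval -0.28 to 0.01, adjusted p = 0.193) and -0.17 relative to Ctrl cells (interval -0.31 to -0.02, adjusted p = 0.0811). Groups that did not overlap were common among all genes tested. They made up 47.4% of genes for p53 KO and parental cells, 40.4% for p53 KO and Ctrl cells and 43.9% for Ctrl and parental cells, and 4 of 6 members had no overlap in each of these comparisons.

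GPC1 (ENSG00000063660, chromosome 2 from 240435663 to 240468076) had 391, 383 and 379 CPM in parental libraries, 634, 559 and 516 CPM in Ctrl libraries and 309, 316 and 367 CPM in p53 KO libraries. The 3 groups did not overlap, with Ctrl highest and p53 KO lowest, the reverse of the order of SPOCK1. GPC1 was lower than in Ctrl cells, with a log2 fold change of -0.79 (interval -0.98 to -0.59, adjusted p = 8.66e-05). Against parental cells the log2 fold change was -0.22 (interval -0.41 to -0.02) and did not pass (adjusted p = 0.12). It did pass without Ctrl replicate 1 in the model (adjusted p = 0.0202) and with only parental and p53 KO libraries in it (adjusted p = 0.0213).

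**Figure D3:**
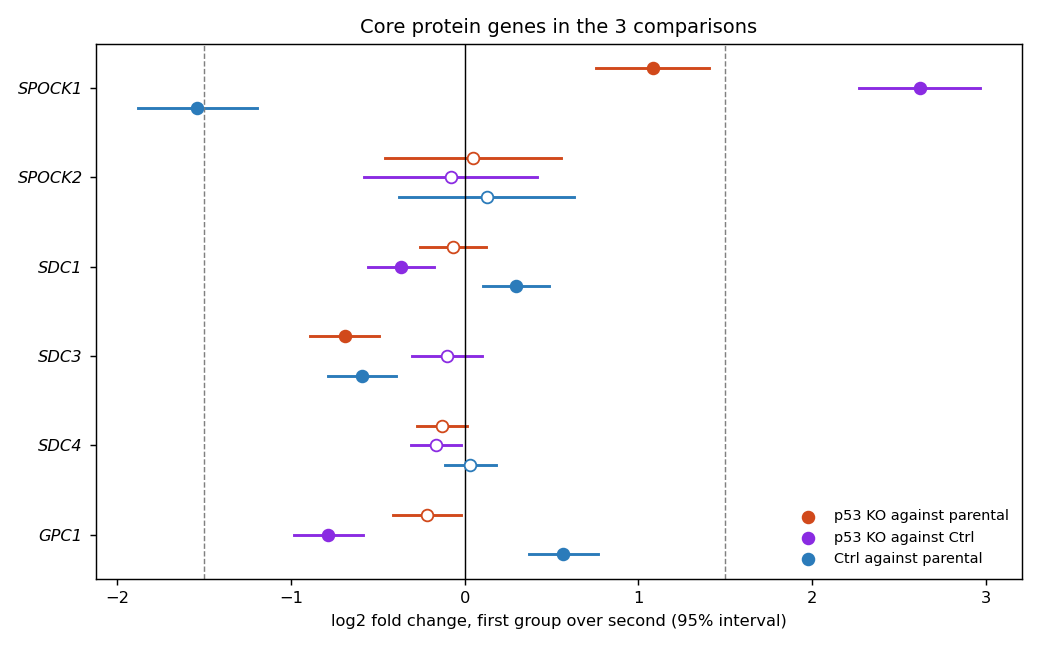
Points are log2 fold changes of the 6 tested genes for each pair of groups (p53 KO and parental, p53 KO and Ctrl, Ctrl and parental) and lines are 95% intervals; filled points passed at 0.05, and dashed lines mark 1.5 in either direction. SPOCK1 lies at 1.08, 2.62 and -1.54, and every other gene lies inside the dashed lines.

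Ctrl and parental cells, which share mutant p53, were compared to see how far the members differ without loss of p53. Here 4 of 6 members passed (20.3% of all genes) and 1 passed the fold threshold (1.94% of all genes). SPOCK1 and SDC3 fell, and GPC1 and SDC1 rose. SPOCK1 was 2.90-fold lower in Ctrl than in parental cells (log2 fold change -1.54, interval -1.88 to -1.19, adjusted p = 9.89e-05), which is larger in size than its difference between p53 KO and parental cells. Without Ctrl replicate 1 the value was -1.35, and 0 members passed the fold threshold. GPC1 was higher in Ctrl cells, with a log2 fold change of 0.57 (interval 0.37 to 0.76, adjusted p = 0.0016). For SDC1 the difference was 0.30 (interval 0.11 to 0.49, adjusted p = 0.0339). It did not pass with only the 2 groups in the model (adjusted p = 0.0605), nor without parental replicate 1, 2 or 3, Ctrl replicate 2 or p53 KO replicate 2, where the adjusted p-value ranged from 0.0546 to 0.11. SDC4 and SPOCK2 had log2 fold changes of 0.03 and 0.13, with adjusted p-values of 0.729 and 0.719.

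Against the 6 control libraries together, 3 of 6 members passed (24.8% of all genes), 1 of them past the fold threshold (2.38% of all genes). For 3 of 6 members (22.0% of all genes), SPOCK1, SDC4 and GPC1, no p53 KO library overlapped the controls. Of those that passed, SPOCK1 was higher (1.85 on the log2 scale, adjusted p = 2.41e-06), and GPC1 (-0.50, adjusted p = 0.000814) and SDC3 (-0.39, adjusted p = 0.00384) were lower. The p53 KO range of SDC3 overlapped the Ctrl range, and SDC3 did not pass against Ctrl cells alone (-0.10, adjusted p = 0.458). SDC1 was close to the threshold at -0.22 (adjusted p = 0.0563), and it passed with DESeq2 (adjusted p = 0.0356), with DESeq2's size factors (0.0492), without the filter on low counts (0.0365), and without Ctrl replicate 1 (0.0248), Ctrl replicate 3 (0.0224) or p53 KO replicate 3 (0.0314). SDC4 passed without Ctrl replicate 1 as well (adjusted p = 0.0399), which made 5 of 6.

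The genes around each member were compared with it, as the 5 tested genes nearest on each side. The 10 neighbours of SPOCK1 had a median log2 fold change of 0.10 in p53 KO against parental cells, between -0.77 and 0.28. SPOCK1 at 1.08 lay outside that range. The same held against Ctrl cells, where the neighbours lay between -0.96 and 0.51, and in Ctrl against parental cells, where they lay between -0.44 and 0.52. Of the 10 neighbours of SPOCK2, 9 passed in p53 KO against parental cells and all 9 were higher, with a median over the 10 of 0.53. The neighbours spanned 0.31 to 1.18, and the interval of SPOCK2 itself reached 0.55. Against Ctrl cells 8 neighbours passed, 5 higher and 3 lower (between -0.89 and 0.68), and in Ctrl against parental cells 6 passed, 5 of them higher (between -0.37 and 1.26). Around GPC1 the median was -0.08 when p53 KO was set against parental cells and -0.13 when set against Ctrl cells, where 2 of 10 neighbours passed, and GPC1 at -0.79 lay inside their range there (-1.97 to -0.01). SDC3, at -0.69 against parental cells, had neighbours with a median of 0.18 and lay inside their range (-0.80 to 1.90). For SDC1 and SDC4 the medians of the neighbours against Ctrl cells were -0.01 and -0.09. GPC3 and GPC4, both at 0 counts, lie next to each other on chromosome X. No exon of another annotated gene overlapped the exons of the 6 tested members.

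**Figure D4:**
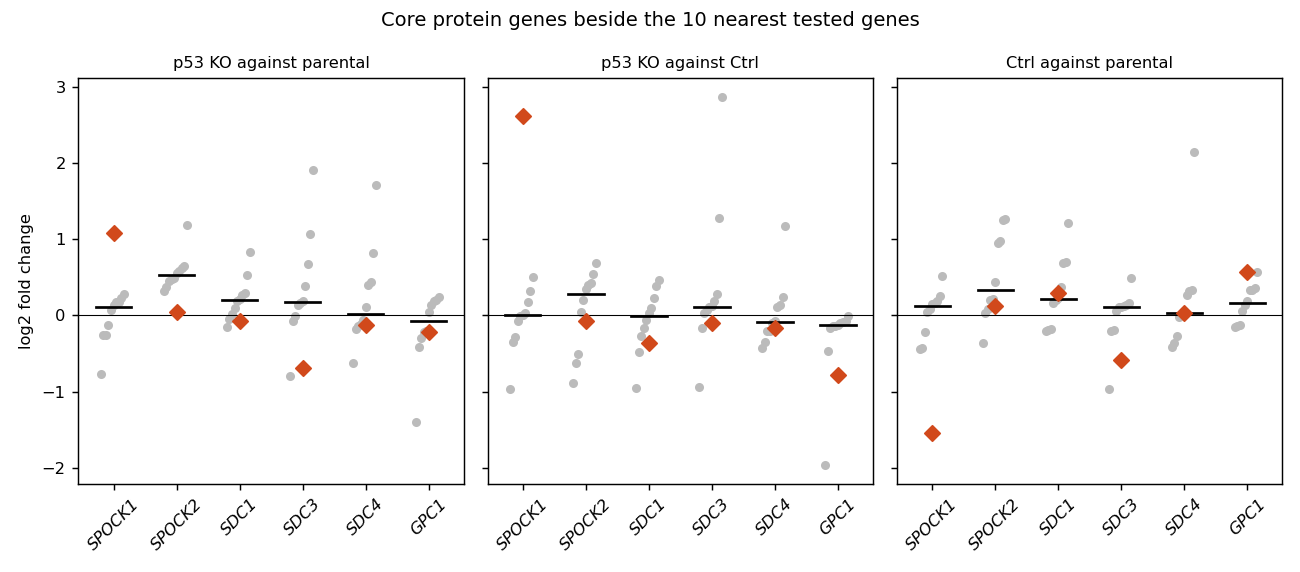
Diamonds are log2 fold changes of each tested member in the 3 comparisons, grey points are those of its 10 nearest tested genes and black lines their medians. SPOCK1 lies outside the range of its neighbours in each panel, and the neighbours of SPOCK2 all lie above 0 in p53 KO against parental cells.

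Likeness to SPOCK1 was measured as the root-mean-square difference of mean-centred log2 CPM over the 9 libraries. Of 11499 genes with a mean log2 CPM above 1, the 5 nearest were EIF4E3 (0.22), HTR7 (0.22), IL7R (0.23), F2R (0.23) and CYP27C1 (0.27), where the median gene was at 1.12. EIF4E3 is a relative of the cap-binding factor eIF4E, HTR7 a serotonin receptor, IL7R the interleukin-7 receptor chain, F2R the thrombin receptor and CYP27C1 a retinoid-modifying enzyme. Each was highest in p53 KO and lowest in Ctrl cells, an order that follows from picking them for likeness to SPOCK1 and is no separate result. IL7R had 39.8 CPM in parental cells, 12.0 in Ctrl cells and 108 in p53 KO cells, and F2R, which like IL7R and SPOCK1 lies on chromosome 5, had 6.15, 1.96 and 10.3 CPM. No other core protein gene was among the 5.

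The enzymes, proteases, partners and ligands that work with these core proteins were taken as 9 lists with 116 genes, of which 65 were tested. Of these, 32 passed in p53 KO against parental cells (49.2%, beside 18.1% of all genes), 17 higher and 15 lower. Against Ctrl cells 36 passed (55.4%, beside 29.2%), 23 higher and 13 lower. In Ctrl against parental cells 28 passed (43.1%, beside 20.3%), 6 higher and 22 lower. No list was tested as a set, and the lists were chosen with earlier results of these data known. Without p53 KO replicate 3 the number against parental cells was 21. In Ctrl against parental cells it was 15 without parental replicate 1, 17 without parental replicate 2, and 18 with only those groups in the model.

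Of 10 tested enzymes that build the linker and the heparan sulfate chain, 1 rose and 3 fell against parental cells, and 1 rose and 5 fell against Ctrl cells. PXYLP1, a phosphatase that acts on the xylose of the linker between core protein and chain, had 4.31 to 4.98 CPM in parental, 4.44 to 4.99 in Ctrl and 1.59 to 2.31 CPM in p53 KO libraries, with no overlap between p53 KO and control libraries. The log2 fold change of PXYLP1 was -1.20 against parental (adjusted p = 0.000363) and -1.22 against Ctrl cells (adjusted p = 0.00013). EXT1, a subunit of the chain polymerase, fell by 0.49 and 0.58 on the log2 scale in these comparisons (adjusted p = 0.00034 and 5e-05), and EXTL3, which starts the chain, rose by 0.38 and 0.40 (adjusted p = 0.00346 and 0.00121). Of 5 tested enzymes that modify the chain, 1 rose and 1 fell against each control. These were HS3ST1, a 3-O-sulfotransferase, with log2 fold changes of 0.38 and 0.41, and NDST1, which begins sulfation, with -0.29 and -0.32. Against parental cells NDST1 did not pass without parental replicate 1 or 2 or any single p53 KO replicate (adjusted p from 0.0635 to 0.122), and HS3ST1 did not pass without parental replicate 1 or 3 or p53 KO replicate 3 (adjusted p from 0.0671 to 0.0719). Without parental replicate 1 or p53 KO replicate 3, 0 of the 5 passed there. EXT1, EXTL3, HS3ST1 and NDST1 were chosen after their values were seen.

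Extracellular editing of the chain rests on the sulfatases and heparanase, of which SULF2 and HPSE were tested. SULF2, which removes sulfate groups from finished heparan sulfate and was also chosen after its values were seen, had 53.9 CPM in parental cells, 9.85 in Ctrl cells and 102 CPM in p53 KO cells. That is the order of SPOCK1. Its log2 fold change was 0.92 against parental (SE 0.07, adjusted p = 1.25e-05) and 3.37 against Ctrl cells (SE 0.08, adjusted p = 1.08e-09). HPSE had log2 fold changes of 0.07 and 0.17 and did not pass.

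Among 14 tested enzymes of chondroitin and dermatan sulfate, 3 rose and 3 fell against parental cells, and 6 rose and 2 fell against Ctrl cells. DSEL, an epimerase of dermatan sulfate, had 2.62 to 4.34 CPM in parental, 5.22 to 5.66 in Ctrl and 1.34 to 2.02 CPM in p53 KO libraries, and its log2 fold change was -1.11 (adjusted p = 0.00417) and -1.73 (adjusted p = 0.0001). Of 6 other core proteins tested, 1 rose and 3 fell against parental cells, and 1 rose and 2 fell against Ctrl cells. Against parental cells 2 in place of 4 passed without parental replicate 1, p53 KO replicate 2 or p53 KO replicate 3. TGFBR3 (betaglycan), a co-receptor for TGF-beta that carries such chains, had 28.3, 25.7 and 26.5 CPM in parental, 19.4, 30.9 and 34.7 CPM in Ctrl and 13.5, 13.3 and 9.58 CPM in p53 KO libraries. It fell by 1.13 against parental (adjusted p = 0.00241) and by 1.22 against Ctrl cells (adjusted p = 0.000788) on the log2 scale. COL18A1, a basement membrane proteoglycan chosen after its values were seen, rose to 12.8 CPM in p53 KO cells from 7.84 in parental and 1.20 in Ctrl cells (adjusted p = 0.000622 and 3e-08). HSPG2, of the same list and also chosen after its values were seen, fell by 0.50 and 0.56 on the log2 scale (adjusted p = 0.0324 and 0.0119). Without overlap with any control library, SPOCK1 and COL18A1 were thus highest in p53 KO cells, and TGFBR3, HSPG2, GPC1 and SDC4 lowest. GPC1 did not pass against parental cells, and SDC4 did not pass against either control.

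Of the 3 tested SPARC family relatives of the testicans, SMOC2 and FSTL1 rose against parental cells by log2 fold changes of 0.65 and 0.46, and against Ctrl cells by 0.75 and 0.34 (adjusted p from 0.00219 to 0.0383). The call of SMOC2 against parental cells was lost when any single parental or p53 KO replicate was left out (adjusted p from 0.0527 to 0.135), and its call against Ctrl cells was lost without Ctrl replicate 2 (0.0588). SPARCL1, the third, did not pass in either comparison. Among 6 proteases that cleave core proteins or their partners, 2 rose and 1 fell against each control. MMP2, a gelatinase of the matrix, had 143, 135 and 128 counts in parental, 4, 3 and 1 counts in Ctrl and 464, 427 and 354 counts in p53 KO libraries, again in the order of SPOCK1. It rose against parental cells (log2 fold change 1.57, adjusted p = 1.49e-05). Against Ctrl cells the fitted log2 fold change was 7.19 (adjusted p = 1.19e-08), and it rests on the few Ctrl counts just given.

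Of 8 cytoplasmic partners of syndecans, 2 rose and 1 fell against parental cells, and 5 rose and 1 fell against Ctrl cells. Without Ctrl replicate 1, 5 passed against parental cells in place of 3. SDCBP (syntenin), which binds the tails of syndecans and guides them into vesicles, fell by 0.42 against parental (adjusted p = 0.0045) and by 0.33 against Ctrl cells (adjusted p = 0.0105) on the log2 scale. Without p53 KO replicate 2 the latter was -0.29 and did not pass (adjusted p = 0.0555). Among 11 ligands that bind heparan sulfate and FGF receptors, 4 rose and 3 fell against parental cells, and 4 rose and 1 fell against Ctrl cells. FGF2, whose signal depends on heparan sulfate and which was chosen after its values were seen, rose by log2 fold changes of 0.84 (adjusted p = 0.00133) and 1.59 (adjusted p = 1.26e-05).

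**Figure D5:**
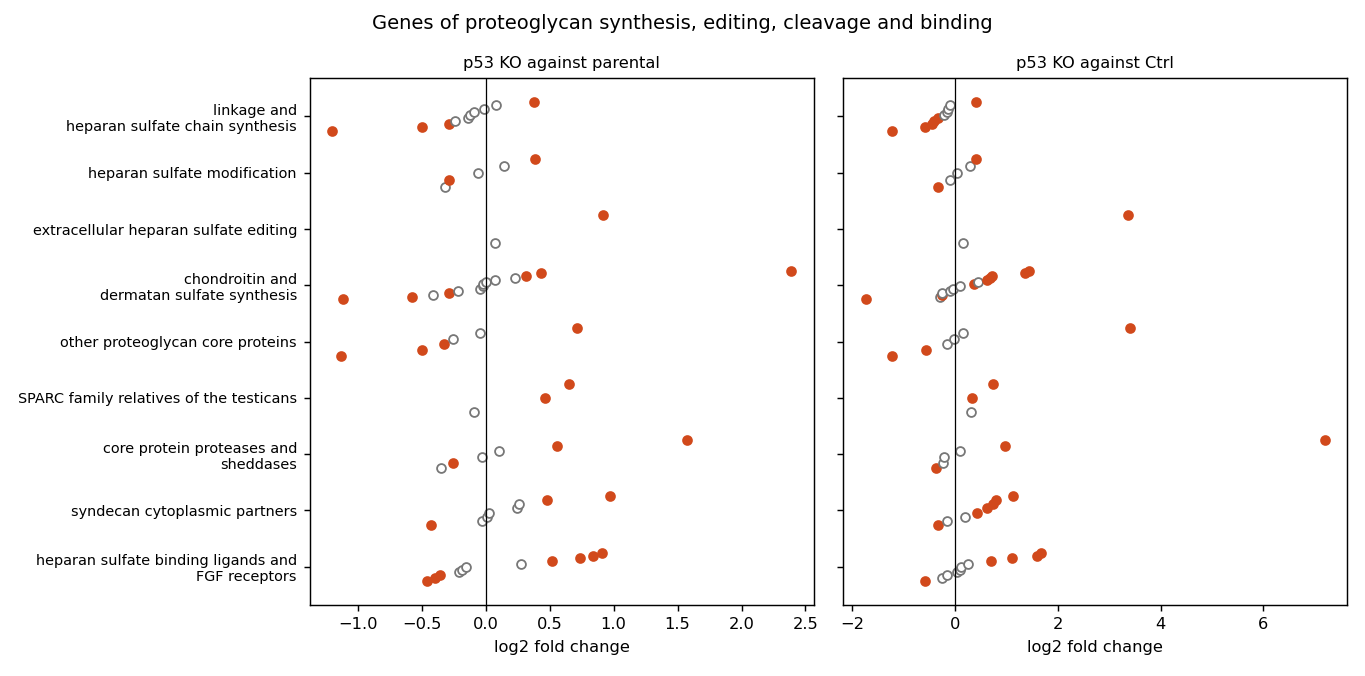
Each point is the log2 fold change of a tested gene of the 9 lists in p53 KO cells, against parental cells on the left and Ctrl cells on the right, with separate axis ranges. Filled points passed at 0.05; SULF2, COL18A1 and MMP2 lie farthest to the right against Ctrl cells, at 3.37, 3.41 and 7.19.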

How the data were processed

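RNA was measured in 9 libraries of A431 cells. According to the study's methods, the libraries were strand-specific and poly(A)-selected, reads were paired-end of 75 bp, and the authors aligned them with STAR 2.5.1b to GRCh38 and counted them with featureCounts on Ensembl release 85. The strand setting of the counting is not given in the sources used here. The authors deposited counts per gene as whole numbers without normalisation.

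The analysis used edgeR 4.0.16 under R 4.3.3. Genes were filtered with filterByExpr (minimum count 10), which left 14513, and normalised by TMM. All 9 libraries entered a single model in which each group had its own mean, and contrasts were tested by the quasi-likelihood F test with Benjamini-Hochberg adjustment over all genes. A gene passed when its adjusted p-value did not exceed 0.05, and the study's fold threshold was a log2 fold change of 1.5 in size. The study's own test, DESeq2 (1.42.0), was an alternative. Intervals use the moderated degrees of freedom. The analysis was checked on simulated counts. Lengths and positions come from GENCODE release 44, and promoter sequences from RefSeq. Figures were drawn with matplotlib 3.10.9.

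The members, lists and tests were chosen with earlier results of these data known. Genes named were the members, MMP2, SDCBP, the 5 genes most like SPOCK1, and up to 5 genes per list that passed with a log2 fold change of at least 1 in the same direction against both controls. Every other list gene named (SMOC2, FSTL1, SPARCL1 and HPSE among them) was chosen after its value was seen. The level of the targeted gene is not reported here. Marker lists covered keratinocytes, fibroblasts, leukocytes and endothelium. Other alternatives were DESeq2's size factors, other filters on low counts, a block for the replicate number, a model of the 2 groups alone, each library left out in turn, a log2 fold change of at least 1, another gene length and plain library totals.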

Additional observations from a re-analysis of the deposited data

Results flagged for a closer look

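SPOCK1 moved in opposite directions in p53 KO and Ctrl cells when each was compared with parental cells. The test of this difference is the comparison of p53 KO with Ctrl cells, with a log2 fold change of 2.62 (edgeR's quasi-likelihood F test, adjusted p = 1.11e-06). All 3 p53 KO libraries were above and all 3 Ctrl libraries below the parental range.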

How the results depend on the processing

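SPOCK1 kept its direction and its side of the threshold on the adjusted p-value in every comparison under all alternatives, with log2 fold changes of 1.02 to 1.13 against parental and 2.43 to 2.76 against Ctrl cells. At a log2 fold change of at least 1, 1 member was called in p53 KO against parental cells. With each library left out in turn, 0 to 1 members were called in Ctrl against parental cells and 3 to 5 passed against the 6 control libraries, and the genes of the 9 lists that passed numbered 21 to 41 in p53 KO against parental and 15 to 33 in Ctrl against parental cells. The replicate number as a block left 21 and 18 of these, and only the 2 groups compared left 18 in the latter comparison. Replicate numbers did not pair the libraries, since 0 of 9 same-numbered pairs had deviations correlated above 0.1 (-0.35 to 0.04). Differently numbered pairs ranged from -0.22 to 0.39, with the highest for p53 KO replicate 3 and Ctrl replicate 1. These libraries had the lowest totals of all, 20597162 and 19783778 counts. In each of them SPOCK1 and TGFBR3 were lowest and GPC1 and SDC1 highest within their group. The part of depth in this was not tested. Under the block SDC1 did not pass in Ctrl against parental cells (adjusted p = 0.0829), nor did SMOC2, HS3ST1 and NDST1 in p53 KO against parental cells (0.0852, 0.0566 and 0.0812). Small differences turned their sign when single libraries were left out. The log2 fold change of SPOCK2 then ranged from -0.0739 to 0.2116 in p53 KO against parental cells and from -0.0862 to 0.0668 against the 6 control libraries, where the replicate block gave 0.0023. In Ctrl against parental cells SDC4 ranged from -0.0194 to 0.0799, PXYLP1 from -0.0335 to 0.0725 and TGFBR3 from -0.0813 to 0.2890. The cause was not tested. Depth limits SPOCK2 most, at 15 to 24 counts per library.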
